A study of Mus musculus with 9 samples.

Results

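*Malat1*, *Neat1*, *Sfpq*, *Nono*, *Pspc1* and *Tardbp* were taken from the deposited RNA-seq tables of AML12 cells, a mouse hepatocyte line, by matching gene identifiers to symbols in the GENCODE M1 annotation. These are 6 of the 13643 genes listed in at least 1 table, and each of the 6 was listed in both. AML12 cells had been infected for 5 days with lentivirus carrying *Srrm2* shRNA 1 or *Srrm2* shRNA 2, and a further group is labelled as control for shRNA, with 3 libraries per group. What the control cells received, and for how long, is not given in the sources used here. Cells of every group grew in DMEM/F12 with 10% fetal bovine serum, an ITS supplement and 0.1 µM dexamethasone. *Srrm2* encodes a core protein of nuclear speckles (NSs), and the study depleted it to disrupt NSs. Whether the 3 libraries of a group came from separate infections is not given in the sources used here.

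Each table gives for every gene 1 mean normalized count, the authors' mean over the control libraries and the libraries of 1 hairpin together. No value of a single library was used, so the levels here have no replicate error and no test, and the depth of each library is unknown. The control and a hairpin cannot be separated in such a mean. Accordingly, these means could not show the depletion of *Srrm2* (3428 in the table of shRNA 1 and 3759 in that of shRNA 2). The paper reports that both shRNAs lowered its mRNA and protein. No change upon *Srrm2* knockdown is reported here. What the tables do give is how abundant these RNAs are in AML12 cells and how far the 2 pooled means of a gene differ. The label of 1 control library names both tables, whereas those of the other 2 name the table of shRNA 1 and tables of further hairpins. How many control libraries the table of shRNA 2 holds is therefore not settled. In bulk RNA, fewer cells of a type and less RNA per cell cannot be told apart.

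*Malat1* and *Neat1* are long noncoding RNAs that stay in the nucleus. *Malat1* concentrates in NSs. *Neat1* is the scaffold of paraspeckles, nuclear bodies that lie beside NSs, and is made in a short and a long form that share their 5′ end. The long form builds the body, together with the DBHS family of RNA-binding proteins (Sfpq, Nono and Pspc1), which pair with one another. Tardbp (TDP-43) binds UG-rich RNA and is known to bind *Neat1*. *Malat1* and the long form of *Neat1* end in an unusual way. RNase P cuts off a tRNA-like piece downstream, and the new 3′ end is protected by a triple helix that U-rich motifs form with a genome-encoded A-rich tract, in place of a poly(A) tail.

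The 3′ ends of both RNAs are shown first, because their capture depends on how a library selects RNA. Each sequence is the RNA strand of mm9, 5′ to 3′, written as DNA. The first capitals mark the A-rich tract and the second the heptamer GGTTCNA of the tRNA-like piece, which corresponds to the T loop of tRNAs.
*Malat1* chr19:5795922-5796079: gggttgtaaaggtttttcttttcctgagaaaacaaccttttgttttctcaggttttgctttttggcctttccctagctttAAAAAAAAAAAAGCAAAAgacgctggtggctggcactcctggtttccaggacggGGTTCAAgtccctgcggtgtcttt
*Neat1* chr19:5824648-5824798: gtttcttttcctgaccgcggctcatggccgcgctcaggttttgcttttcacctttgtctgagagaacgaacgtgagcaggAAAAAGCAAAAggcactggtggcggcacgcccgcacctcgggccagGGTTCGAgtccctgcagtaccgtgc

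The search looked on the RNA strand for at least 5 A, then GC, then at least 4 A, in the last 500 bases of the longest transcript of each gene and the 100 bases after it. It was chosen with both RNAs in mind, so their matches are a description. The tract was found in 36 of 13643 genes (0.264%) and the heptamer alone in 8.90%. The tract with the heptamer within 60 bases after it was found in 3 genes (0.0220%), which were *Malat1*, *Neat1* and *Ubxn2a*. In *Malat1* the tract ended 292 bases before the annotated 3′ end, so the annotated gene runs past the tRNA-like piece. In *Neat1* the tract ended exactly at the annotated 3′ end of the long form, and the tRNA-like piece lies outside the gene model. None of the 4 protein genes had the tract.

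*Neat1* also holds runs of the UG type that Tardbp is known to bind. Runs of at least 5 TG units (10 bases) were searched in the longest transcript of each gene, on the RNA strand, after the annotation had been seen, and the other 5 genes had 0. The 3 runs of *Neat1* are shown in capitals with 20 bases on either side.
*Neat1* chr19:5838613-5838666: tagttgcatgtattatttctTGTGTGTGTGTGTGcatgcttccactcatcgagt
*Neat1* chr19:5826008-5826071: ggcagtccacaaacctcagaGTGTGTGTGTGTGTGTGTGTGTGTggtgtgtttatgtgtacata
*Neat1* chr19:5825668-5825721: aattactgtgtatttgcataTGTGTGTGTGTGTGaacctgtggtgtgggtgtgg

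The runs start at bases 6833, 19428 and 19778 of the long transcript of 20771 bases and measure 14, 24 and 14 bases. They lie downstream of the annotated short transcripts, which are all at the 5′ end of the gene and have up to 3004 bases. At least 1 run was found in 11.0% of genes and at least 3 in 113 genes (0.828%), and longer transcripts have more room for them. Counted per kb with overlapping matches, TGTGTG occurred 2.31 times in *Neat1*, more often than in 92.8% of genes. A long run counts several times in this measure, so the 3 runs above are part of it. *Pspc1* had 1.05 and *Tardbp* 0.80 per kb. *Malat1* had 0.43, *Nono* 0.39 and *Sfpq* 0, against a median of 0.52 over all genes. A match is a description of letters and says nothing of binding in these cells.

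*Malat1* had the highest mean in both tables, although capture of RNAs that lack a poly(A) tail is uncertain here. Its mean normalized count was 334497 in the table of shRNA 1 and 350695 in that of shRNA 2. These values were 5.44% and 5.49% of the summed means of all listed genes. *Ahnak*, a very large scaffold protein, came second with means of 167738 and 150669, and *Eef1a1*, a translation elongation factor, followed with 54779 and 62212. *Neat1* was at rank 4 in both tables, ahead of *Clu*, the secreted chaperone clusterin (32683 and 36687). The pooled mean of *Neat1* was 35179 in the table of shRNA 1 and 39277 in that of shRNA 2, or 0.573% and 0.614% of the sums. Among the 752 noncoding genes in both tables, the next after *Malat1* and *Neat1* was *Tug1* in the table of shRNA 1 (mean of 1253) and *Gas5* in that of shRNA 2 (mean of 1340). Thus, by means not divided by length, the neighbouring pair stood far above every other of these 752 noncoding genes.

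A longer RNA yields more fragments, so levels were also compared per kb of merged exons, the union of all annotated exons of a gene. *Malat1* (6982 bases of merged exons) stayed first, at 47908 per kb in the table of shRNA 1 and 50228 in that of shRNA 2. *Neat1* (20771 bases) was at 1694 and 1891 per kb and moved from rank 4 to ranks 94 and 90. Per kb, *Malat1* was 28.3 times as abundant as *Neat1* in the table of shRNA 1 and 26.6 times in that of shRNA 2. The length of *Neat1* is that of the long form, while its annotated short transcripts have up to 3004 bases. Its level and ranks per kb, and its ratios to *Malat1* and to other genes, depend on this choice of length. Reads over the shared 5′ end were counted once for the gene, so the level of the short form and that of the long form cannot be told apart in these values. The order of these levels is a description, since no spread over libraries stands behind it.

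**Figure D1:**
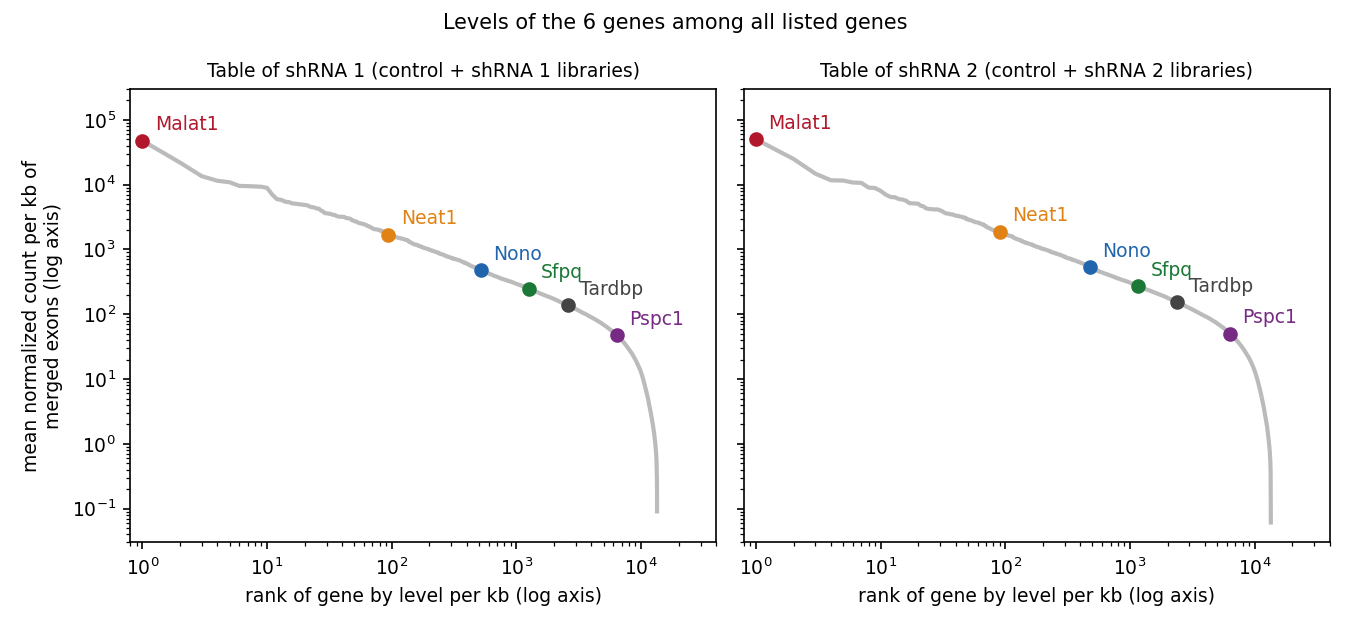
Mean normalized count per kb of merged exons (vertical, log axis) against the rank of each listed gene by that level (horizontal, log axis), with all genes as a grey line and the 6 genes as coloured points, 1 panel per table. *Malat1* is at rank 1 in both panels, *Neat1* at ranks 94 and 90, and *Pspc1* at ranks 6389 and 6353, near the middle of the genes listed.

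The 4 protein genes were below both RNAs and differed widely among themselves. *Nono* led, at 478 and 533 per kb in the tables of shRNA 1 and shRNA 2. *Sfpq*, its usual partner, was at 247 and 272 per kb. *Tardbp* was at 137 and 153 per kb. *Pspc1* was lowest, at 47.3 and 50.3 per kb, close to the median of all listed genes (43.1 and 44.8). Of the summed level of the 3 DBHS genes, 61.9% and 62.3% came from *Nono* and 32.0% and 31.8% from *Sfpq*, leaving 6.13% and 5.89% for *Pspc1*. *Neat1* exceeded *Nono* 3.54 and 3.55 times per kb, but only 2.08 times in either table with the longest transcripts as lengths and 1.62 and 1.63 times without the copied bases described later. Without those bases the shares of *Sfpq* (18.5% and 18.3%) and *Pspc1* (3.54% and 3.39%) were lower too. *Neat1* exceeded *Pspc1* 35.8 and 37.6 times. The order *Malat1*, *Neat1*, *Nono*, *Sfpq*, *Tardbp*, *Pspc1* was the same in both tables. These are RNA levels, and protein was not measured in these files.

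The means behind these levels follow the same order, with *Sfpq* and *Tardbp* closer to each other. *Nono* had means of 2090 and 2330. *Sfpq* had means of 1173 and 1290, and *Tardbp*, whose merged exons are longer (7477 against 4743 bases), had 1022 and 1145. *Pspc1* had means of only 189 and 201. By mean, *Nono* ranked 423 and 383, *Sfpq* 1027 and 956, *Tardbp* 1261 and 1132, and *Pspc1* 5895 and 5866 among the 13424 and 13478 genes listed. The 6 genes together held 6.09% and 6.18% of the summed means, nearly all of it *Malat1* and *Neat1*.

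The gene models differ in ways that touch these values. *Malat1* (ENSMUSG00000092341.1, chromosome 19, 5795690 to 5802671, minus strand) and *Neat1* (ENSMUSG00000092274.1, chromosome 19, 5824708 to 5845478, minus strand) are each covered by a single-exon transcript over the whole gene. *Sfpq* (ENSMUSG00000028820.7, chromosome 4, 126698568 to 126714257, plus strand) has 6 transcripts, of which 1 is annotated as coding. *Nono* (ENSMUSG00000031311.11, chromosome X, 98624657 to 98643930, plus strand) has 7, of which 2 are coding and 4 retain an intron. *Pspc1* (ENSMUSG00000021938.5, chromosome 14, 57341278 to 57397153, minus strand) has 4, of which 2 are coding. *Tardbp* (ENSMUSG00000041459.8, chromosome 4, 147986491 to 148001128, minus strand) has 12, of which 9 are coding. Divided by the longest transcript in place of merged exons, *Nono* rose to 816 and 909 per kb. Divided by the median transcript length, which is short for *Malat1* (656 bases) and *Neat1* (2017 bases), the levels in the table of shRNA 1 became 509904 and 17441 per kb, and the order of the 6 genes stayed as it was.

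Copies elsewhere in the genome bear on *Nono* most, since the authors kept only uniquely mapped pairs. At 95% identity or more over at least 150 bases, 2372 of its 4375 exon bases (54.2%) had a copy. One copy is the annotated pseudogene *Gm8806* (2370 aligned bases, 97.9% identity), and the other overlaps *Ncoa7* (1584 aligned bases, 95.2% identity). Without the copied bases in the length, *Nono* came to 1044 and 1163 per kb. The counted reads were left as they were, so these values are neither a corrected level nor a bound. How the copied bases divide between the longest transcript (2562 bases) and the other exons was not examined. The level of *Nono* per kb is therefore uncertain. *Tardbp* had 906 of 7477 bases (12.1%) with a copy, at a single place with no annotated gene. In *Malat1* it was 165 bases (2.36%) of a repeat, and *Neat1*, *Sfpq* and *Pspc1* had none.

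Overlapping genes were a smaller matter. *Gm20417*, on the opposite strand, shares 425 exon bases with *Malat1* and was not listed in either table. *Masp2*, a complement protease gene on the opposite strand, shares 1817 exon bases with *Tardbp* and had means of only 7.07 and 6.26. *Gm12940*, on the same strand, shares 216 exon bases with *Sfpq* and had means of 77.9 and 89.3. The libraries were described as strand-specific, but how strand was set in the counting is not given in the sources used here.

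The 2 pooled means of each gene were then compared as a log2 ratio, the mean in the table of shRNA 2 over that in the table of shRNA 1. The tables were normalized separately, so the median ratio (0.07) of the 7757 genes whose mean reached 100 in each table was subtracted. If both tables hold the same control libraries, the ratio moves only with the difference between the hairpins, and the shared controls make it smaller than that difference. It does not compare either hairpin with the control. Over those 7757 genes, the centred ratio had an SD of 0.15, with 5th and 95th percentiles of -0.25 and 0.22.

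None of the 6 genes was past a centred ratio of 0.1 in either direction, where 43.7% of all 7757 genes were. *Malat1* had a ratio of 0.00022, at the median of all genes, so its pooled means differed by no more than the tables as a whole. With the centring taken at a mean of at least 10 its sign changed (-0.0041). *Pspc1* had a ratio of 0.02 and *Sfpq* of 0.07. *Nono* had 0.088, *Neat1* 0.091 and *Tardbp* 0.095, all just inside the size of 0.1. These 3 were above between 76.0% and 77.7% of genes. All 6 ratios were above 0, as were 49.99% of all genes, and their median was 0.08. Without the libraries' own values, none of this can be set against replicate error. With centring on the summed means, *Neat1* (0.10) and *Tardbp* (0.11) came past 0.1, against 43.9% of all genes.

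**Figure D2:**
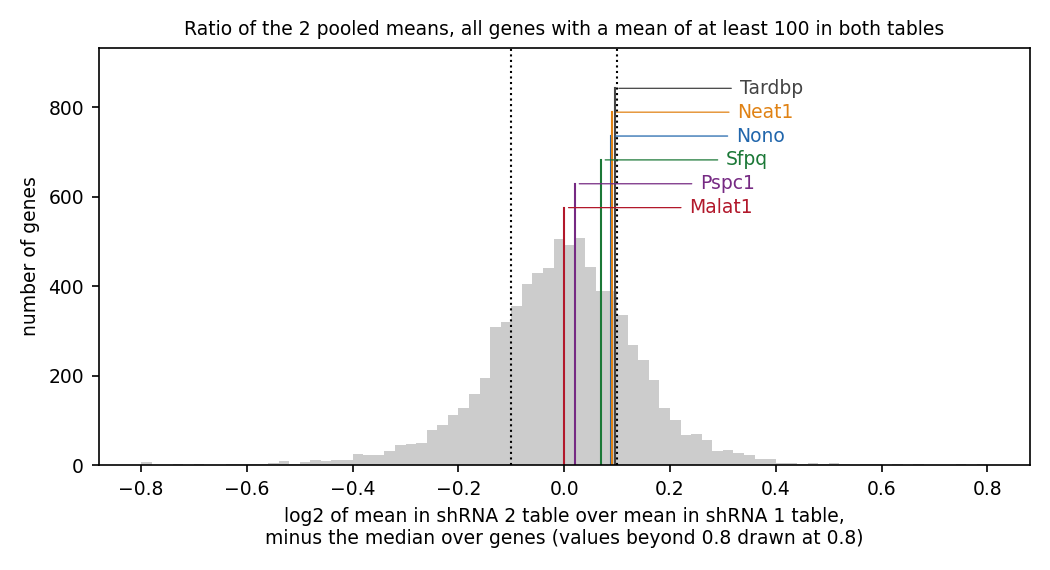
Number of genes (vertical) by centred log2 ratio of the mean in the table of shRNA 2 over that in the table of shRNA 1 (horizontal), for the 7757 genes whose mean reached 100 in each table; coloured lines mark the 6 genes and dotted lines a ratio of 0.1 in either direction. All 6 genes lie between 0 and 0.1, with *Malat1* at the centre and *Tardbp*, *Neat1* and *Nono* nearest to 0.1.

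Other proteins known from paraspeckles put the 4 protein genes in context. Of 29 such genes, 29 were listed, with levels from 6.83 to 1530 per kb in the table of shRNA 1 and from 8.29 to 1637 in that of shRNA 2 (medians of 132 and 151). The 3 highest were *Hnrnpf* (1530 and 1637), *Hnrnpk* (1042 and 1053) and *Hnrnpa1* (949 and 1221), all heterogeneous nuclear ribonucleoproteins that bind nascent RNA, and they were the only ones of the 29 above *Nono* in either table by merged exon length. Without its copied bases, and with the other lengths unchanged, *Nono* (1044 and 1163) was also above *Hnrnpk* in both tables and above *Hnrnpa1* in that of shRNA 1. Copies of the 29 genes were not searched, so this order is 1-sided. The 3 lowest were *Hnrnph3* (30.1 and 34.4), *Rbm12* (23.3 and 25.4) and *Zc3h6* (6.83 and 8.29). Together with *Aqr*, an intron-binding helicase (45.2 and 47.5), these were the 4 genes below *Pspc1*.

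In the ratio of the pooled means, 27 of the 29 reached a mean of 100 in each table. Of these, 5 were past 0.1 upward and 2 downward, together a smaller share than the 43.7% of all genes, and the median ratio was 0.03. *Hnrnpa1* was farthest, at 0.30. *Rbm3*, a cold-inducible RNA-binding protein, was at 0.15, followed by *Rbm4b* (0.14), *Taf15* (0.13) and *Matr3* (0.11). *Smarca4*, the ATPase of a chromatin remodeller (-0.13), and *Fam98a* (-0.12) were lower in the table of shRNA 2.

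RNase P and RNase Z, which make the 3′ ends of *Malat1* and long *Neat1* and trim the tRNA-like piece, had median RNA levels of 44.8 and 46.2 per kb, close to those of all listed genes (43.1 and 44.8). All 11 genes listed for them were found, between 4.01 and 109 per kb in the table of shRNA 1 and between 4.81 and 128 in that of shRNA 2. The highest were *Pop4* (109 and 128) and *Rpp30* (85.3 and 90.8), protein subunits of RNase P, and *Elac2* (58.8 and 71.4), which is RNase Z. The lowest per kb were *Pop5* (31.2 and 28.6), *Rpp25* (5.21 and 5.51) and *Rpp40* (4.01 and 4.81). By mean, *Rpp25* (7.02 and 7.41) was below *Rpp40* (26.2 and 31.5), whose merged exons are longer (6540 against 1346 bases). Only 4 of the 11 reached a mean of 100 in each table. Of these, *Elac2* (0.21) and *Pop4* (0.15) were past 0.1 upward and *Pop1* (-0.15) downward, beside 43.7% of all genes. The RNA subunit of RNase P was not part of the list.

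**Figure D3:**
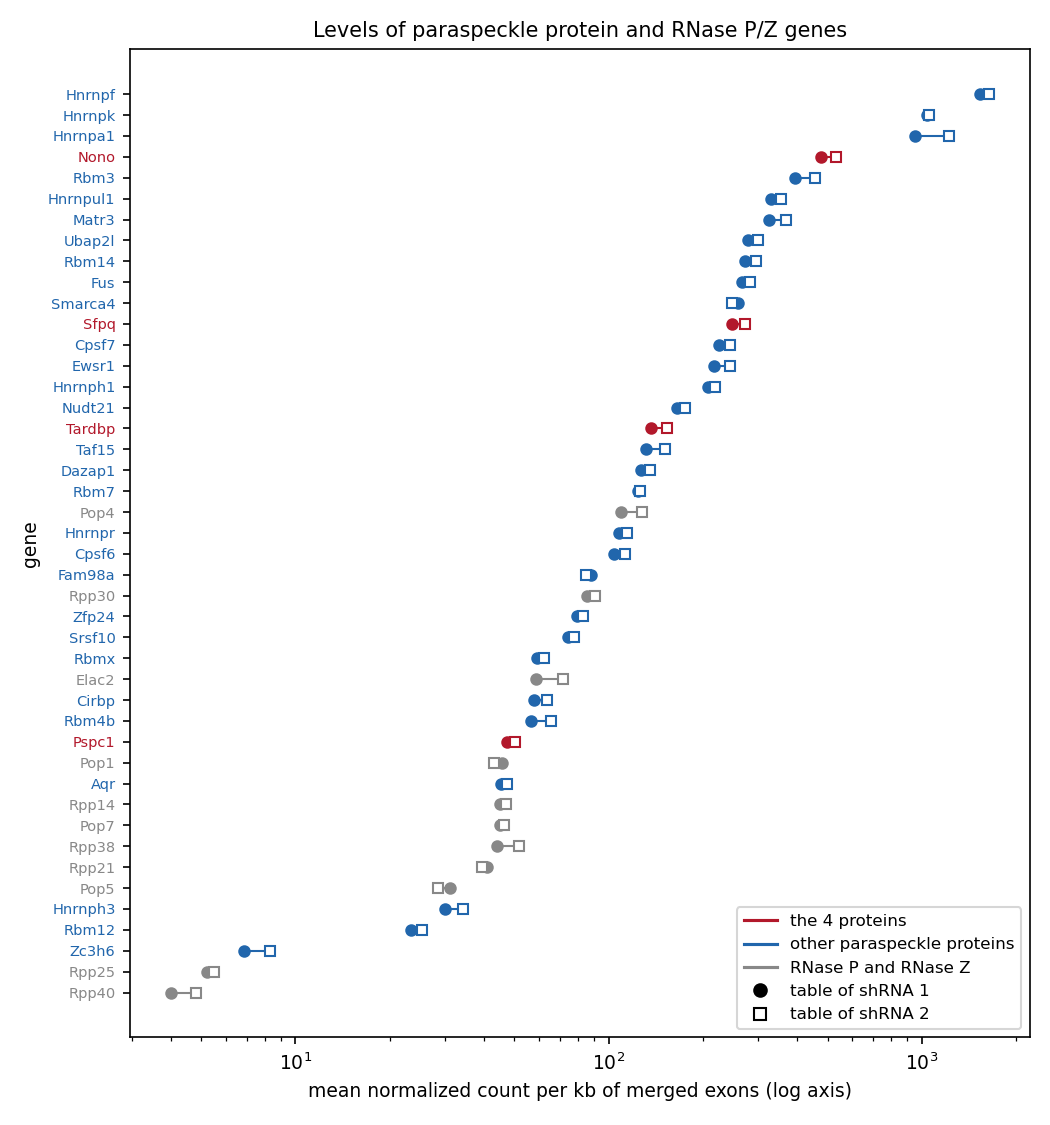
Mean normalized count per kb of merged exons (horizontal, log axis) of each gene (vertical) for *Nono*, *Sfpq*, *Tardbp* and *Pspc1* in red, 29 other paraspeckle protein genes in blue and 11 RNase P and RNase Z genes in grey; filled circles are the table of shRNA 1 and open squares that of shRNA 2. *Nono* lies below only *Hnrnpf*, *Hnrnpk* and *Hnrnpa1*, *Pspc1* in the lower part among the RNase P genes, and the 2 tables lie close together for nearly every gene.

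*Malat1* and *Neat1* lie side by side, with 22036 bases between them, and the genes around them were much less abundant. Within 100 kb of either, values of 15 further annotated genes were examined and 11 were listed, with levels of 5.44 to 718 per kb in the table of shRNA 1 and 6.53 to 717 in that of shRNA 2. The highest neighbour was *Ltbp3*, a protein that binds latent TGF-beta (718 and 717 per kb), and the lowest was *Tigd3* (5.44 and 6.53). Even *Ltbp3* was below *Neat1*. *Kcnk7*, *Gm16538*, *Fam89b* and *Gm20417* were not listed.

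The neighbours did not share 1 direction in the ratio of the pooled means. Of the 9 that reached a mean of 100 in each table, *Map3k11*, a kinase of the JNK pathway (0.21), and *Cdc42ep2*, an effector of the GTPase Cdc42 (0.15), were past 0.1 upward. *Frmd8* (-0.12) and *Sssca1* (-0.12) were past it downward. That is 4 of 9, close to the 43.7% of all genes, so it is no trait of this locus. *Map3k11* and *Sssca1* lie downstream of *Malat1*, and *Cdc42ep2* and *Frmd8* upstream of *Neat1*. With so few genes, the directions on either side are a description only. The ratios of *Malat1* and *Neat1* were 0.00022 and 0.091.

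**Figure D4:**
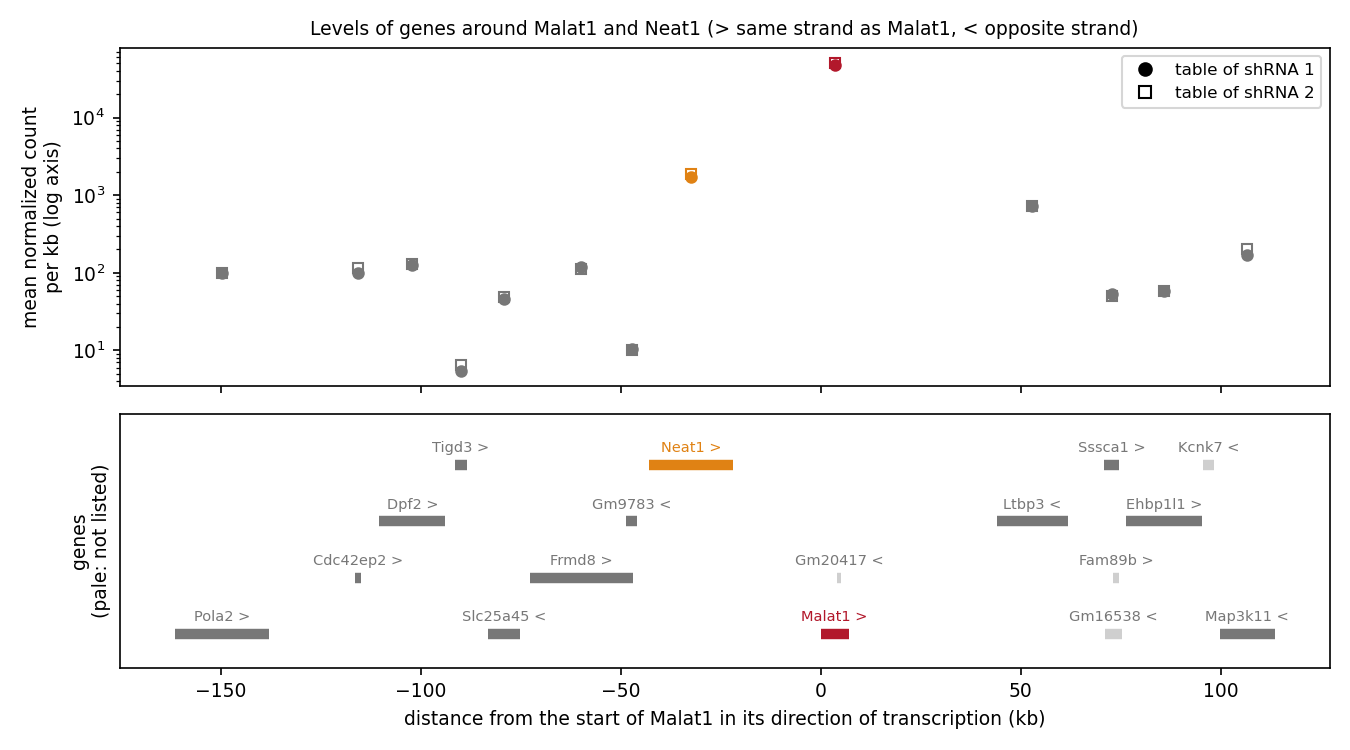
Upper panel: mean normalized count per kb of merged exons (vertical, log axis) of 11 listed genes within 100 kb of *Malat1* or *Neat1*, at the middle of the gene, against the distance from the start of *Malat1* in its direction of transcription (horizontal, kb), with filled circles for the table of shRNA 1 and open squares for that of shRNA 2. Lower panel: the genes as bars on the same axis, pale where not listed; *Malat1* and *Neat1* stand above all 11 listed neighbours, of which *Ltbp3* is highest.

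The label of the cells was checked against marker genes. All 7 genes chosen as hepatocyte markers were listed, from *Krt18* (7034 and 6395 per kb) and *Krt8* down to *Apoa1* (31.9 and 31.5 per kb). *Apoa1* had means of only 39.4 and 38.9. *Alb*, the serum albumin gene, was at 1053 and 888 per kb. All 3 cholangiocyte markers were listed too, led by *Krt19* at 1537 and 1484 per kb, above *Alb* in both tables. Being listed therefore does not tell these cell types apart. Of 3 leukocyte markers, *Ptprc* had means of 5.30 and 5.47, *Cd68* had 25.1 and 29.8, and *Adgre1* was not listed. None of 3 endothelial markers was listed, and of 3 fibroblast markers only *Col1a1* was, with means of 3.85 and 3.99.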

How the data were processed

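For RNA-seq, the authors prepared libraries they described as strand-specific and polyA-enriched, with a kit named for total RNA. Per the labels the molecule was total RNA. Retention of RNAs that lack a poly(A) tail is therefore uncertain. Reads were mapped to mm9 by TopHat2, and only uniquely mapped pairs were kept. Read counts on GENCODE M1 genes were obtained using HTSeq and normalized in DESeq2 version 1.8.2. The authors deposited 1 table per hairpin with the mean normalized count signal of each gene, a pooled value over the control and that hairpin's libraries (13424 and 13478 genes, summing to 6144608 and 6393456). The tables also hold the authors' fold changes, standard errors, statistics and p-values, 5 columns per table, which were not used. Genes that are not listed were treated as not listed, never as 0.

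All gene identifiers matched GENCODE M1 on NCBIM37, the assembly of mm9. Means were divided by merged exon length, by sums and ranked, and log2 ratios between tables were centred as described. A ratio of 0.1 was taken as a size, not as a test. The ratio calculation was run on simulated data without noise, in which shRNA 1 equalled the control, so only its arithmetic was checked. Copies were searched with BLAST+ 2.17.0, and sequences read with samtools 1.23.1. Python 3.11.15, numpy 2.4.6, pandas 2.3.3 and matplotlib 3.10.9 were used. *Zfp24* was matched through its synonym *Zfp191*.

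The 6 genes, the lists and the tests were chosen with earlier results of these data known. Named genes are the 6, the 3 highest and 3 lowest of each protein list and those past 0.1, the 5 genes of highest mean, the other neighbours within 100 kb, and *Srrm2*. *Tug1*, *Gas5*, *Ubxn2a*, *Aqr*, overlapping genes and copies were named after their values were seen. Alternatives were other lengths, denominators, orders, centrings and sizes. The length without copied bases, the copy search and the sequence searches were added after the data were seen. 1 neighbouring gene is not reported here. Hi-C data were not analysed here.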

Additional observations from a re-analysis of the deposited data

How the results depend on the processing

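No paired analysis was possible because only pooled means were used, and for the same reason no replicate could be left out. Of 93 alternative values, 54 stayed within the difference between both tables (for ratios, the SD over abundant genes) and 39 moved. All 18 alternatives for the ratios were among the 54, because the changes of centring were small beside that SD (0.13). For *Malat1*, *Neat1* and *Tardbp* the longest transcript equals the merged exons, so that alternative could not move. The 54 are therefore no measure of robustness. Values are for the tables of shRNA 1 and shRNA 2. Per kb of the longest transcript, *Sfpq* came to 338.5 and 372.4, *Nono* to 816 and 909, and *Pspc1* to 66.2 and 70.4. Per kb of the median transcript, *Malat1* came to 509904 and 534597, *Neat1* to 17441 and 19473, *Sfpq* to 1397 and 1536, *Nono* to 3043 and 3391, *Pspc1* to 127 and 135, and *Tardbp* to 670 and 751, which kept the order of the 6. Without copied bases, added after the data were seen, *Nono* came to 1044 and 1163 and *Tardbp* to 156 and 174. Without *Malat1* in the sum, *Sfpq* held 0.0202% and 0.0214% and *Pspc1* 0.00326% and 0.00333%. Ordered per kb, *Neat1* ranked 94 and 90, *Sfpq* 1255 and 1165, *Nono* 517 and 477, *Pspc1* 6389 and 6353, and *Tardbp* 2587 and 2393. The number past the ratio was 4 of 6 at a size of 0.05 (69.3% of all genes) and 0 at 0.2 (14.4%). It was 2 with centring on the summed means, with or without *Malat1* (43.9% of all genes). Depth per library is unknown, so no interval could be given for the lowest gene, *Pspc1*, at means of 189 and 201.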
